A study of Saccharomyces cerevisiae with 15 samples.

Results

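Yeast that grows on glucose turns pyruvate into ethanol in 2 steps and can turn the intermediate, acetaldehyde, into acetate instead. Pyruvate decarboxylase splits pyruvate into acetaldehyde and carbon dioxide, alcohol dehydrogenase reduces acetaldehyde to ethanol or oxidises ethanol back to acetaldehyde, and aldehyde dehydrogenase oxidises acetaldehyde to acetate, the precursor of cytosolic acetyl-CoA. Each step has several isozymes, encoded by separate genes that are known for unlike regulation by glucose, stress and nutrients. The genes described here are the 3 pyruvate decarboxylase genes PDC1, PDC5 and PDC6, the 2 alcohol dehydrogenase genes ADH1 and ADH2, and the 5 aldehyde dehydrogenase genes ALD2, ALD3, ALD4, ALD5 and ALD6. They were chosen by symbol in the platform's probe-to-gene table. All 10 were found, with 1 probe each, among 6249 genes or probes.

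The data were 15 2-colour DNA microarrays of Saccharomyces cerevisiae, 1 array per condition. All strains were W303 and MatA. The wild type was strain ACY044. Strain ACY509, a mutant made by homologous recombination, lacks SNF1, which encodes the yeast AMP-activated protein kinase needed to derepress genes when glucose runs low. Cells in mid-log growth were treated for 20 minutes, and their RNA was hybridised against RNA of untreated mid-log cells of the same strain. In 7 arrays wild-type cells had a single treatment, which was starvation for amino acids or nitrogen, a shift to 0.1% glucose, 200 nM rapamycin (which inhibits the growth regulator TORC1), heat shock at 42 °C, 0.4 mM hydrogen peroxide or 0.375 M KCl. Wild-type cells had combined treatments in 3 arrays, which were nitrogen and glucose starvation, glucose starvation with 200 nM rapamycin, and nitrogen starvation with 0.375 M KCl. The labels call glucose removal in the first pair of these total carbon starvation, unlike the single treatment, which left 0.1% glucose. The snf1 strain was treated in 4 arrays, with nitrogen starvation, 0.375 M KCl, 0.1% glucose and 0.02% glucose. The remaining array set snf1 cells against wild-type cells, with mid-log growth named for the wild type.

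Each value is the log2 of the treated over the mid-log signal, so 1 is a 2-fold rise and −1 a 2-fold fall. No condition had a replicate. A value on a single array therefore has no error and no test, and precision is limited by how few arrays there were. The log base is not written in the deposited table, and log2 was assumed. The extremes, −7.18 and 9.47, exceed what a scanner can give on a log10 scale but do not settle between log2 and a natural logarithm. The fold readings rest on that assumption. The array of hydrogen peroxide had the opposite dye order and was turned, so peroxide and dye cannot be told apart there. On 6 arrays between 717 and 1256 spots were listed at exactly 0 and were taken as no value, against 21 to 48 on the other arrays. Across the treatments median ratios of all genes lay between −0.15 and 0.03. SNF1 itself had no value on the array that compared the strains. In the treated snf1 cells its ratio ran from 0.05 in KCl to 2.57 in 0.1% glucose, which does not check the deletion, because both channels hold the same strain.

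**Figure D1:**
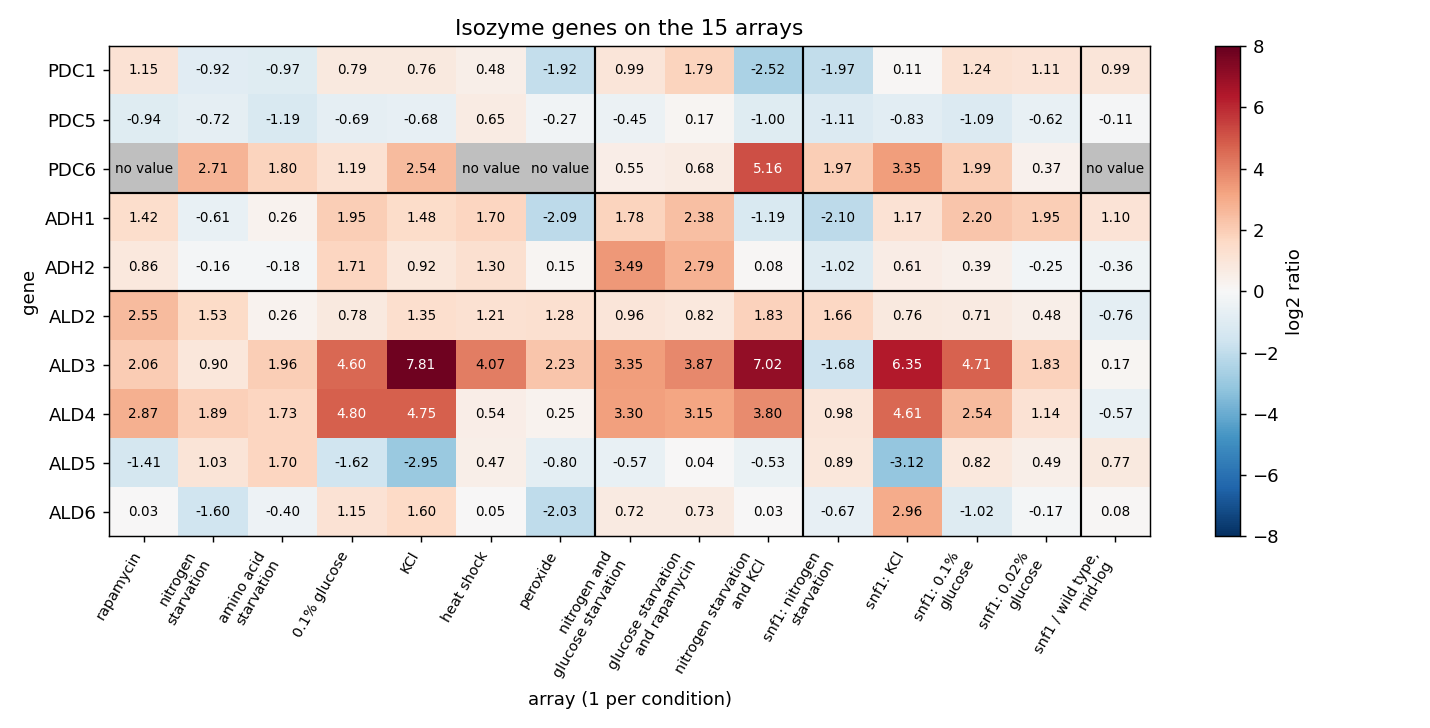
Log2 ratios of the 10 isozyme genes (rows) on the 15 arrays (columns), with red for higher and blue for lower in treated cells, or, in the last column, in snf1 over wild-type cells. Black lines part the 3 families and, from left to right, the single treatments, the combined treatments, the treated snf1 cells and the strain comparison. PDC6 has no value (grey) on 4 arrays, and the highest value is 7.81, for ALD3 in KCl.

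Of the 140 values that 10 genes could have on the 14 treatment arrays, 137 were measured. The genes were at least 2-fold higher in 60 of them and at least 2-fold lower in 19. On these arrays between 7.54% and 18.4% of all genes were at least 2-fold higher, and between 7.52% and 23.0% lower. The share of lower values among the members thus lies within the range of all genes. With rapamycin 5 of 9 measured members were at least 2-fold higher and 1 lower, where 11.1% and 11.5% of all genes measured there were. Nitrogen starvation had 4 of 10 higher and 1 lower, against 14.7% and 14.6% of genes. Amino acid starvation also had 4 higher and 1 lower, against 13.4% and 14.7%. In 0.1% glucose 6 of 10 were higher and 1 lower (14.7% and 19.1% of genes), and in KCl again 6 and 1 (13.2% and 15.7%). Heat shock had 4 of 9 higher and 0 lower (16.0% and 18.4%). Peroxide was the one single treatment with more members lower than higher, 3 against 2 of 9 (12.3% and 9.97% of genes). The members that made up these counts differed from treatment to treatment, as the following paragraphs show family by family.

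PDC1, the major pyruvate decarboxylase gene of fermenting cells, lay on both sides of 0. Its log2 ratio was 1.15 with rapamycin, 0.79 in 0.1% glucose, 0.76 in KCl and 0.48 at heat shock, against −0.92 in nitrogen starvation, −0.97 in amino acid starvation and −1.92 in peroxide. Rapamycin and peroxide thus had the highest and the lowest of its 7 values. PDC5, which encodes the second enzyme and is known to be expressed strongly when PDC1 is lost or thiamine is short, was lower under most treatments. It stood at −1.19 in amino acid starvation, −0.94 with rapamycin, −0.72 in nitrogen starvation, −0.69 in 0.1% glucose, −0.68 in KCl and −0.27 in peroxide. Heat shock, at 0.65, was the one single treatment with PDC5 above 0.

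PDC6 encodes a minor isozyme that is low in sulfur-containing amino acids and is known to be induced when sulfur is limiting. It was measured on 4 of the 7 arrays, where it stood at 2.71 in nitrogen starvation, 2.54 in KCl, 1.80 in amino acid starvation and 1.19 in 0.1% glucose. It was listed at 0 with rapamycin and at heat shock, as negative control spots were on those arrays, and blank in peroxide. All 4 measured values were above those of PDC1 and PDC5 on the same arrays. The gap to PDC1 ran from 0.40 in 0.1% glucose to 3.63 in nitrogen starvation. Negative control spots lay between −0.75 and −0.70 in nitrogen starvation and between −1.15 and −0.77 in 0.1% glucose, which is below PDC6 on both arrays. In KCl and amino acid starvation the control spots were listed at 0, taken as no value, so PDC6 could not be set beside them there.

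ADH1, whose enzyme makes ethanol and restores NAD+ during fermentation, followed PDC1. It was at 1.42 with rapamycin, 1.95 in 0.1% glucose, 1.48 in KCl and 1.70 at heat shock, at 0.26 in amino acid starvation, and at −0.61 in nitrogen starvation and −2.09 in peroxide. Across the 14 treatment arrays the Pearson correlation of ADH1 with PDC1 was 0.953, and that of PDC1 with the pyruvate kinase gene CDC19, which acts just upstream, was 0.957. These coefficients describe arrays that may share a mid-log control. The peroxide values of these genes depend on the turning of that array. As deposited, Cy5 over Cy3, ADH1 was at 2.09, PDC1 at 1.92, CDC19 at 1.81 and ALD6 at 2.03 there. ADH1 had the same sign in Cy5 over Cy3 on 5 of the 6 other arrays, and PDC1 and ALD6 on 4. For ALD6 these include 0.03 with rapamycin and 0.05 at heat shock. CDC19 had that sign with rapamycin, in 0.1% glucose and in KCl, and the opposite sign on the rest. By contrast ALD3 (−2.23), ALD2 (−1.28) and ALD4 (−0.25) as deposited had the sign opposite to that on each of the 6 other arrays. The remaining measured members were at 0.27 (PDC5), −0.15 (ADH2) and 0.80 (ALD5) as deposited. The part of dye bias in the peroxide values was not tested.

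ADH2 encodes the enzyme that oxidises ethanol and is known for repression by glucose and activation through Adr1 and Snf1. Its values were 1.71 in 0.1% glucose, 1.30 at heat shock, 0.92 in KCl, 0.86 with rapamycin, 0.15 in peroxide, −0.16 in nitrogen starvation and −0.18 in amino acid starvation. It was highest in low glucose, but so was ADH1, and ADH2 was below ADH1 on 5 of the 7 arrays. In 0.1% glucose the difference of ADH2 minus ADH1 was −0.24. They were furthest apart in peroxide, where that difference was 2.24. The coding sequences of ADH1 and ADH2, of PDC1 and PDC5, and of ALD2 and ALD3 are known to be similar, so a probe may also take up signal of its partner, which was not tested.

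**Figure D2:**
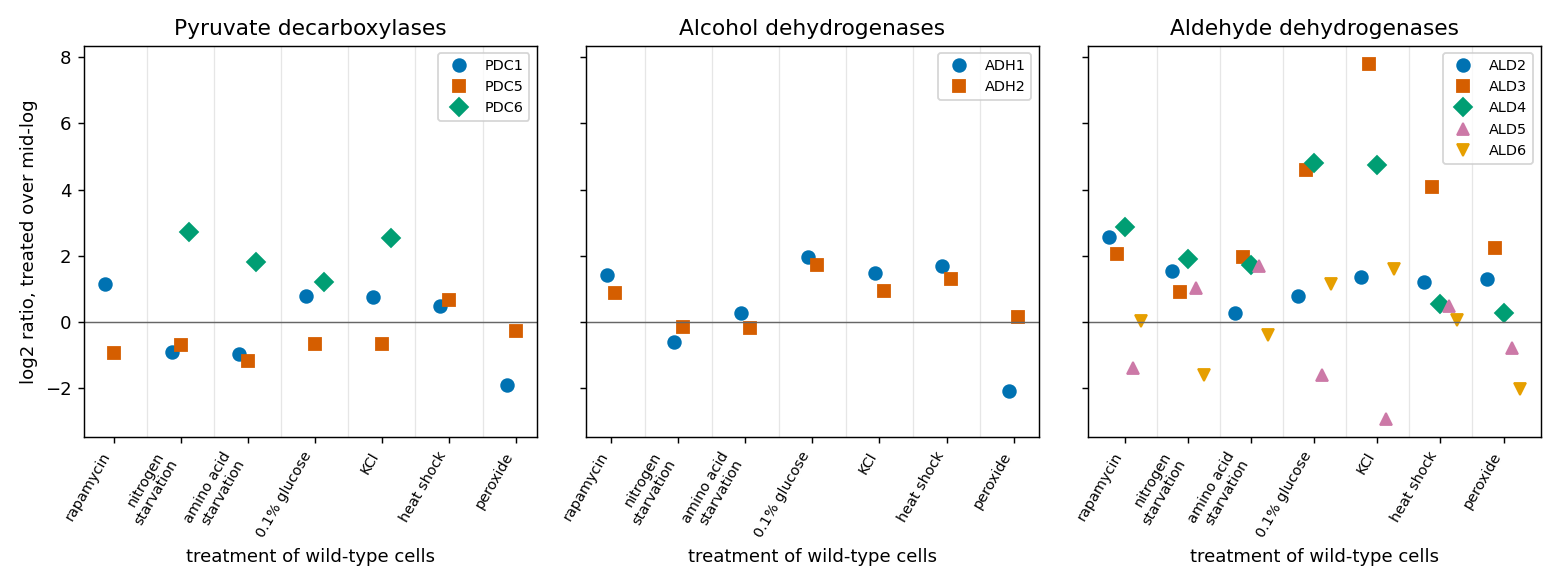
Log2 ratio of treated over mid-log wild-type cells (vertical axis) for each isozyme under the 7 single treatments (horizontal axis), 1 panel per family and 1 point per array. ALD3 and ALD4 lie near 4.7 in 0.1% glucose while ALD5 is at −1.62, and the spread of the ALD genes is widest in KCl.

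The aldehyde dehydrogenase genes spread the most. ALD3, for a cytosolic enzyme known to be induced by stress, was above 0 under every single treatment. It stood at 7.81 in KCl, in place 4 from the top of 5513 genes on that array, at 4.60 in 0.1% glucose, 4.07 at heat shock, 2.23 in peroxide, 2.06 with rapamycin, 1.96 in amino acid starvation and 0.90 in nitrogen starvation. ALD2 is its neighbour on the chromosome, and both enzymes act in making beta-alanine for pantothenate. ALD2 did not follow ALD3. Its values were 2.55 with rapamycin, 1.53 in nitrogen starvation, 1.35 in KCl, 1.28 in peroxide, 1.21 at heat shock, 0.78 in 0.1% glucose and 0.26 in amino acid starvation. ALD2 was above ALD3 with rapamycin and in nitrogen starvation, and ALD3 was above ALD2 on the other 5 arrays, by 6.46 in KCl. The correlation of both genes over the 14 arrays was −0.108.

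ALD4 encodes the major mitochondrial enzyme, which is repressed by glucose. It was at 4.80 in 0.1% glucose and 4.75 in KCl, at 2.87 with rapamycin, 1.89 in nitrogen starvation and 1.73 in amino acid starvation, and near 0 at heat shock (0.54) and in peroxide (0.25). ALD4 and ALD3 thus stood together in low glucose and amino acid starvation and parted at heat shock, where ALD4 minus ALD3 was −3.53. The other mitochondrial gene, ALD5, had the opposite sign under 4 of the 7 single treatments. It was at −2.95 in KCl, −1.62 in 0.1% glucose, −1.41 with rapamycin and −0.80 in peroxide, but at 1.70 in amino acid starvation, 1.03 in nitrogen starvation and 0.47 at heat shock. In KCl ALD5 minus ALD4 was −7.70. Over the 14 arrays their correlation was −0.71.

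ALD6 encodes the main cytosolic enzyme that makes acetate in growing cells and yields NADPH. It was at 1.60 in KCl and 1.15 in 0.1% glucose, at 0.03 with rapamycin, 0.05 at heat shock and −0.40 in amino acid starvation, and at −1.60 in nitrogen starvation and −2.03 in peroxide. ALD6 was below ALD3 and ALD4 on each of the 7 arrays, below ALD2 on 5 of them and below ALD5 on 4.

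The first test asked which genes moved the same way over the 7 single treatments, with limma's moderated test on the mean ratio against 0 and Benjamini-Hochberg adjustment over 4862 genes with a value on all 7 arrays. The spread in this test is that between treatments. Arrays that share a mid-log control would not be independent, and an error of that control would enter each of their ratios, which was not tested. Of the 9 members tested, 4 rose and 0 fell, where 23.1% of all genes rose and 27.8% fell, and the members' median coefficient was 0.59 against −0.04 for all genes. ALD3 rose with a mean of 3.38 (SE 0.71, n = 7 arrays, adjusted p = 0.00343 by limma) and ALD4 with 2.40 (SE 0.56, n = 7, adjusted p = 0.00590 by limma). ALD2 rose with 1.28 (SE 0.24, n = 7, adjusted p = 0.00175 by limma), less than ALD3 but with far less spread. These 3 were above 0 on 7 of 7 arrays, and each kept its call when any one array was left out (adjusted p at most 0.0177).

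ADH2 passed narrowly, with 0.66 (SE 0.24, above 0 on 5 of 7 arrays, adjusted p = 0.0472 by limma). Its call was lost without the array of rapamycin (adjusted p = 0.0966 by limma), 0.1% glucose (0.12), KCl (0.104) or heat shock (0.105), and with exact zeros kept as values (0.0502). PDC5 just missed, with −0.55 (SE 0.21, below 0 on 6 of 7 arrays, adjusted p = 0.0505 by limma). It passed without heat shock, at −0.75 (adjusted p = 0.00347 by limma), and with arrays scaled to equal spread, at −0.58 (0.0386). ADH1 had a mean of 0.59 (SE 0.46, adjusted p = 0.308 by limma), and without the peroxide array one of 1.03, which passed (adjusted p = 0.0316). PDC1 (−0.09, 95% interval −0.91 to 0.73), ALD5 (−0.51, −1.64 to 0.62) and ALD6 (−0.17, −1.09 to 0.75) did not pass. PDC6 was not in this fit. Its mean over the 4 arrays that measured it was 2.06 ± 0.70 (SD). That is given with no test, since PDC6 was listed at 0 or blank on the 3 other arrays.

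Isozymes of 1 family were compared on the same arrays by the difference of their ratios, over all 14 pairs within families, with an exact two-sided sign-flip permutation test. With 7 arrays the smallest p it can give is 0.0156, and arrays that share a control would not be independent. After adjustment over the 14 pairs 0 passed. In 3 pairs the difference had one sign on all 7 arrays and reached that smallest p (adjusted p = 0.0729, exact permutation). The mean of ALD6 minus ALD3 was −3.55 ± 1.45 (SD, n = 7), that of ALD6 minus ALD4 −2.58 ± 1.08, and that of ALD5 minus ALD4 −2.92 ± 3.19. ALD5 minus ALD3 was −3.89 ± 3.72 (exact permutation p = 0.0312, adjusted p = 0.109, below 0 on 6 of 7 arrays). For ALD3 minus ALD2 the mean was 2.10 ± 2.52 (exact permutation p = 0.0781, adjusted p = 0.156), since 2 arrays went the other way. ADH2 and ADH1 differed by a mean of 0.07 ± 1.02 (exact permutation p = 0.938), and by −0.29 without peroxide. PDC5 minus PDC1 was −0.46 ± 1.29 (exact permutation p = 0.422). The 2 pairs with PDC6 had 4 arrays, which cannot give a p below 0.125. When the 3 combined treatments were added, 9 of the 14 pairs passed. Those arrays repeat treatments of the 7 arrays, so they are not independent of them, and they allow a smaller p. The pairs were PDC6 with PDC5 and all pairs of ALD genes except ALD4 with ALD3 and ALD6 with ALD5. PDC6 with PDC5 was read only on arrays with a PDC6 value. That leaves out rapamycin, heat shock and peroxide, where PDC6 was listed at 0 or blank. With zeros kept as values, the mean of PDC6 minus PDC5 over the single treatments was 1.97 in place of 2.88.

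Starvation was set against stress with nitrogen starvation, amino acid starvation and 0.1% glucose on one side and KCl, heat shock and peroxide on the other. By limma 0 of 9 members tested and 0 of 4966 genes passed, 0% in each direction, with 490 genes and 0 members at an unadjusted p under 0.05. ALD3 had a difference of −2.22 (95% interval −5.61 to 1.18, adjusted p = 0.642 by limma), meaning lower in starvation, and it ran from −0.66 without KCl to −3.45 without peroxide. ALD5 had a difference of 1.46 (−1.01 to 3.94, adjusted p = 0.677). For ALD3 the 3 starvation values (0.90, 1.96 and 4.60) and the 3 stress values (7.81, 4.07 and 2.23) overlap.

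Combined treatments set the isozymes apart in other ways. Nitrogen and glucose starvation together had ADH2 at 3.49, its highest value on any array, against −0.16 in nitrogen starvation and 1.71 in 0.1% glucose. ADH1 was at 1.78 on that array. Glucose starvation with rapamycin likewise had ADH2 at 2.79, above both 0.1% glucose and rapamycin (0.86), with ADH1 at 2.38 and PDC1 at 1.79. These were the highest values of ADH1 and PDC1 as well. On both arrays the order of ADH1 and ADH2 in 0.1% glucose was turned, with ADH2 above ADH1. By their labels these arrays had total carbon starvation and the single one 0.1% glucose, so the treatments are unlike and the values only stand side by side. Of 10 members, 4 were at least 2-fold higher and 0 lower in nitrogen and glucose starvation, where 16.3% and 18.1% of genes were, and 5 and 0 in glucose starvation with rapamycin (13.2% and 15.3%).

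Nitrogen starvation with KCl had PDC6 at 5.16, in place 26 from the top of 6249 genes, against 2.71 and 2.54 for the single treatments. PDC1 was at −2.52 and ADH1 at −1.19, on the side of nitrogen starvation (−0.92 and −0.61) and not of KCl (0.76 and 1.48). ALD3 at 7.02 and ALD4 at 3.80 were instead near their values in KCl, and ALD5 at −0.53 and ALD6 at 0.03 lay between those of the single treatments. The array had 4 of 10 members at least 2-fold higher and 3 lower, with 18.4% and 23.0% of genes.

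**Figure D3:**
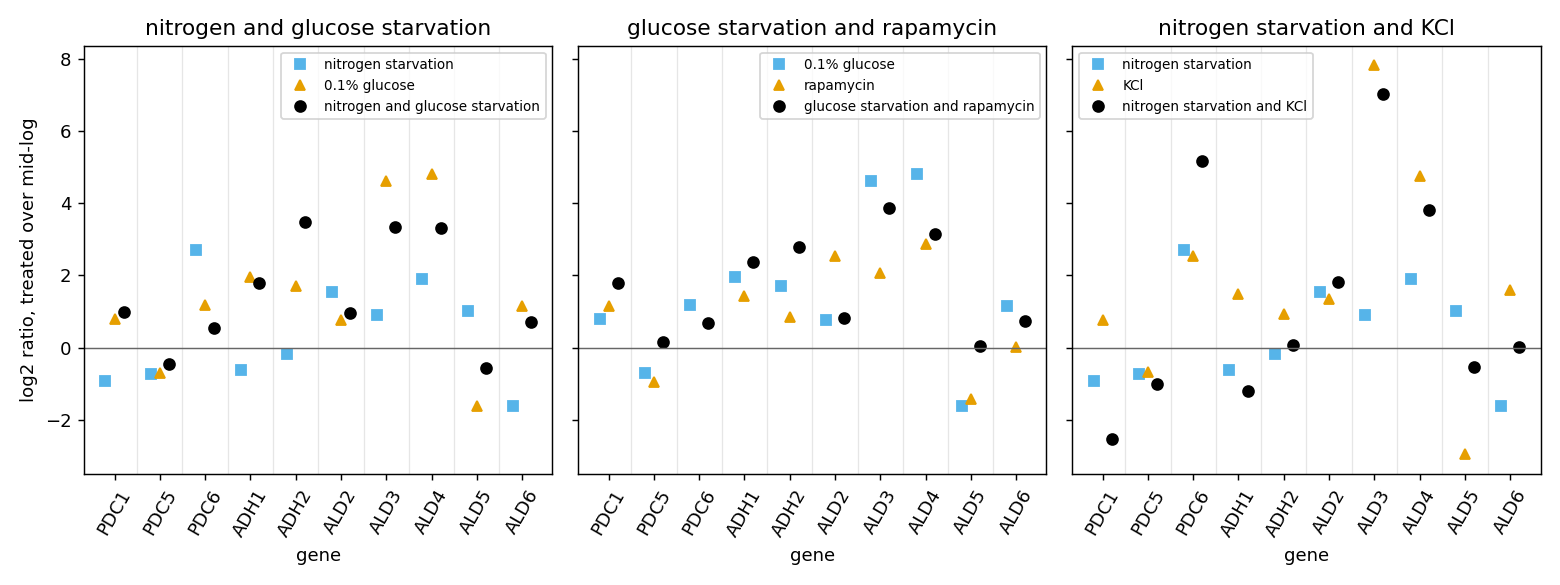
Log2 ratios of treated over mid-log wild-type cells (vertical axis) for each gene under a combined treatment (black circles) and under the single treatments nearest to its parts (blue squares and orange triangles), 1 array each. ADH2 lies above both single treatments in the first panels, at 3.49 and 2.79, and PDC6 does so in the last, at 5.16.

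The next question was whether these responses differed in cells without SNF1. On the array of snf1 against wild-type cells 1 of 9 members was at least 2-fold higher in snf1 and 0 lower, with 2.14% and 1.62% of genes. That member was ADH1, at 1.10. PDC1 was close to it at 0.99, ALD5 was at 0.77, ALD3 at 0.17, ALD6 at 0.08 and PDC5 at −0.11, and ADH2 (−0.36), ALD4 (−0.57) and ALD2 (−0.76) were lower in snf1.

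In nitrogen starvation snf1 cells had 2 of 10 members at least 2-fold higher and 5 lower (14.4% and 18.9% of genes). Set against the wild-type ratios, the snf1 ratios of 3 members were at least 2-fold lower and of 0 higher, where 3.67% and 0.717% of genes were. ALD3 was at −1.68 in snf1 and 0.90 in the wild type, ADH1 at −2.10 and −0.61, and PDC1 at −1.97 and −0.92. Each ratio is over mid-log cells of the same strain, so a lower ratio need not be a lower level in starved snf1 cells. On the array of snf1 against wild-type cells ADH1 was at 1.10, PDC1 at 0.99 and ALD3 at 0.17. The part of that difference in the lower ratios was not tested. PDC6 was at 1.97 and ALD2 at 1.66 in snf1. In KCl snf1 cells had 5 members higher and 1 lower (12.3% and 13.4% of genes), and the strains parted in 1 gene each way (1.36% of genes higher in snf1 and 2.87% lower). ALD3 was at 6.35 in snf1, in place 4 from the top of 6249 genes, against 7.81, and ALD6 was at 2.96 against 1.60. ALD4 (4.61 and 4.75) and ALD5 (−3.12 and −2.95) were close in both strains.

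With 0.1% glucose ALD4, ADH2 and ALD6 had smaller ratios in snf1 than in the wild type. ALD4 was at 2.54 against 4.80, ADH2 at 0.39 against 1.71, and ALD6 at −1.02 against 1.15, while ALD5 was at 0.82 against −1.62. ALD3 was alike at 4.71 and 4.60, as was ADH1 at 2.20 and 1.95. In all 5 members were higher and 2 lower in snf1 (17.2% and 13.3% of genes), and the strains differed by 2-fold in 3 members lower and 1 higher in snf1, where 6.27% and 14.3% of genes did. Negative control spots on the snf1 array were at 2.59 and 2.66, above every member except ALD3, among them ALD4 at 2.54, ADH1 at 2.20 and PDC6 at 1.99. The part of background in the members' values on that array was not tested. In 0.02% glucose 4 members were higher and 0 lower (7.54% and 7.52% of genes). Against 0.1% glucose in the same strain 3 members were at least 2-fold lower and 0 higher, with 9.59% and 3.26% of genes. ALD3 was at 1.83, ALD4 at 1.14 and PDC6 at 0.37 in 0.02% glucose, and ADH2 was at −0.25. Negative control spots were at −1.01 and −0.88 on the 0.02% glucose array, so they too were lower there than in 0.1% glucose. Their part in the lower ratios of ALD3, ALD4 and PDC6 was not tested.

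**Figure D4:**
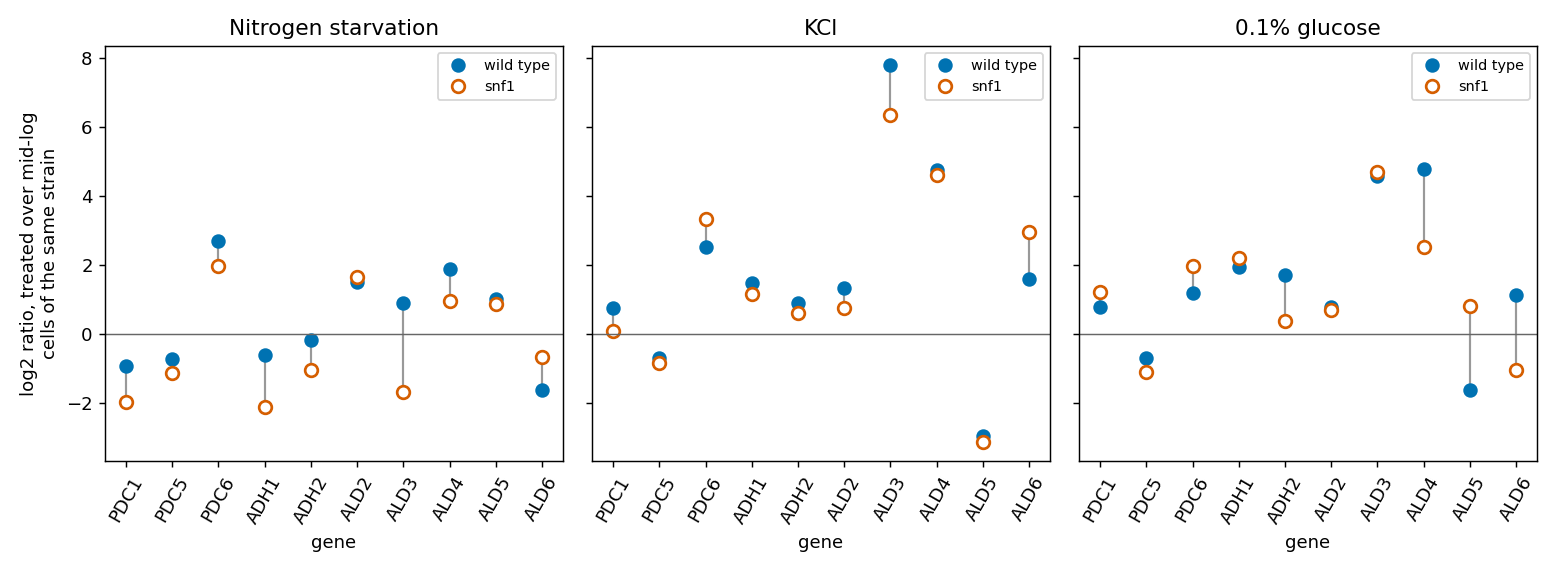
Log2 ratio of treated cells over mid-log cells of the same strain (vertical axis) for each gene in wild-type (filled) and snf1 cells (open), joined by a line, under the 3 treatments given to both strains, 1 array per point. The longest lines are those of ALD3 in nitrogen starvation and of ALD4, ALD5 and ALD6 in 0.1% glucose.

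Over the 3 treatments given to both strains, with the treatment as a block, limma called 0 of 10 members. Of 5401 genes 0% were higher and 0.0185% lower, which was SIP18 alone (−2.98, adjusted p = 0.0388), a gene named here for being the one call. At an unadjusted p under 0.05 there were 738 genes, and 3 members, all with smaller ratios in snf1 on average. These were ADH2 (−0.83, 95% interval −1.43 to −0.23, adjusted p = 0.318 by limma), ALD3 (−1.31, −2.48 to −0.14, adjusted p = 0.347) and ALD4 (−1.10, −2.07 to −0.14, adjusted p = 0.347). ADH2 and ALD4 had smaller ratios in snf1 under 3 of 3 treatments and ALD3 under 2 of 3. ALD3 averaged −0.68 without nitrogen starvation and −2.02 without 0.1% glucose, and ALD4 averaged −0.52 without 0.1% glucose. ALD6 averaged 0.04 (−1.56 to 1.64), as differences of 0.93 and 1.36 in nitrogen starvation and KCl met one of −2.17 in 0.1% glucose.

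Genes around this branch point were taken from fixed lists and read from the same test over the 7 single treatments. Of 6 other alcohol dehydrogenase genes tested 2 rose and 0 fell, with a median of −0.05, beside 23.1% and 27.8% of all genes, so the count of those that rose is near the background. They were ADH5 (1.79, adjusted p = 0.0132 by limma), for a further alcohol dehydrogenase, and BDH1 (1.85, adjusted p = 0.000171), for butanediol dehydrogenase, which was at least 2-fold higher on 7 of 7 arrays. ADH5 was at 3.72 in peroxide and 3.57 in amino acid starvation and at −1.08 in KCl, while ALD4 was at 0.25, 1.73 and 4.75 on these arrays. Of the 2 pyruvate kinase genes PYK2, the glucose-repressed one, rose (2.02, adjusted p = 0.000104) and CDC19 had a mean of 0.07. ARO10, which encodes the decarboxylase of aromatic keto acids, was at least 2-fold higher on all 6 arrays that measured it, up to 4.76 in 0.1% glucose, and was not in the fit.

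Of 5 genes tested of the pyruvate dehydrogenase complex, which takes pyruvate into mitochondrial acetyl-CoA, 1 rose and 0 fell, again beside 23.1% and 27.8% of all genes, the background for each count in this paragraph. That was PDX1 (0.35, adjusted p = 0.0385 by limma), which anchors a subunit. Of 3 genes for making acetyl-CoA outside that complex 2 rose. ACS1, the acetyl-CoA synthetase of cells off glucose, had 0.75 (adjusted p = 0.0203), and ACH1, a mitochondrial CoA transferase, 1.88 (adjusted p = 0.00169), while ACS2 was at −0.40 (adjusted p = 0.0583). Of 6 regulators 2 rose, ADR1 (1.78, adjusted p = 0.00284) and CAT8 (1.65, adjusted p = 0.0123), both activators of genes for ethanol and acetate use. They were highest in 0.1% glucose, at 3.54 and 4.60. MSN2 (0.20), MSN4 (0.02), GCR1 (−0.60) and GCR2 (−0.24) did not pass. Values for the pyruvate carrier were not used here, since 0 of its 3 listed genes had a named probe.

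The genes whose ratios ran most like those of each member were found by Pearson correlation across the 14 treatment arrays among 3484 named genes, as a description of arrays that share treatments and possibly controls. ADH1 was most like the glycolytic genes PGK1 (0.980), ENO2 (0.957) and TPI1 (0.956). PDC1 was most like RPP2A (0.961), CDC19 (0.957) and RPS27B (0.957), the first and last for ribosomal proteins. PDC5 ran with ZPR1 (0.913), MDJ1 (0.888) and BTN2 (0.887), and ADH2 with SNA3 (0.899), the glycogen branching enzyme gene GLC3 (0.880) and ATO2 (0.877).

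Among the aldehyde dehydrogenases the nearest genes were not shared, save 1. ALD2 was most like the vacuolar carboxypeptidase gene CPS1 (0.877), PUT2 of proline breakdown (0.859) and UGA1 of GABA breakdown (0.833). ALD3 was most like the transketolase gene TKL2 (0.946), MCR1 (0.945), for a mitochondrial NADH reductase, and MSC1 (0.939). COX20, a cytochrome oxidase assembly gene, was near both ALD4 (0.910) and ALD6 (0.786). ALD4 was further like the cytochrome c peroxidase gene CCP1 (0.898) and MBR1 (0.861), and ALD6 like ORC4 (0.817) and the ferrochelatase gene HEM15 (0.772). ALD5 ran instead with genes of synthesis, URA2 (0.854) for pyrimidines, ARO3 (0.842) for aromatic amino acids and HOM3 (0.832), an aspartate kinase gene. PDC6 lacked values on 3 of the 14 arrays and was not compared.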

How the data were processed

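The deposited table held log ratios, taken as log2, of Cy5 over Cy3 for 15 arrays, per the labels' dyes. How they were corrected, normalised and filtered, and the base, were not given in the sources used here. Of 6256 gene probes (61 control spots were left out) 4075 had 1 symbol, 0 several and 2181 none. Symbols were updated for 129 probes and 4071 matched the RefSeq R64 table, used for names and gene order only. Replicate probes were averaged for 7 genes. Exact zeros on arrays with over 500 of them were taken as no value, and values were not recentred. Fits used limma 3.58.1 in R 4.3.3 over genes measured on all arrays of the fit, with a Benjamini-Hochberg threshold of 0.05, and the sign-flip tests used Python 3.11.15. Methods were tested on simulated data. Members, lists and pairs were chosen with earlier results of these data known. All members were named. A gene from the pathway lists was named with values where it passed the 7-array test or was at least 2-fold on 5 or more of the 7 arrays, and the 3 most correlated genes were named for each member. Other list genes are named for contrast. Alternatives covered zeros, centring, scaling, genes tested, a robust variance model, the block, the fold and each array left out. No source says whether arrays share a mid-log culture.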

Additional observations from a re-analysis of the deposited data

Results flagged for a closer look

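In 3 cases a gene was above 0 in one strain and below 0 in the other under the same treatment, with a difference of at least 2-fold. With 1 array per strain and treatment these differences were not tested on their own. In nitrogen starvation ALD3 was at 0.90 in the wild type and −1.68 in snf1, a difference of −2.58. Negative control spots were at −1.34 and −1.53 on that snf1 array and at −0.75 and −0.70 on the wild-type array, and their part in the ALD3 difference was not tested. In 0.1% glucose ALD5 was at −1.62 in the wild type and 0.82 in snf1, a difference of 2.44. On the same 2 arrays ALD6 was at 1.15 and −1.02, a difference of −2.17. Negative control spots were at 2.59 and 2.66 on the snf1 array of 0.1% glucose, and at −0.77 and −1.15 on the wild-type array, and their part in the ALD5 and ALD6 differences was not tested.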

How the results depend on the processing

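Each count of members called kept its value within 1.5 times under the alternatives, except that 1 member, PDC5, fell over the 7 treatments with arrays scaled to equal spread or without heat shock (0 to 1 over arrays left out). Of the members' 137 values on the treatment arrays, 30 were lower at a 1.5-fold threshold, in place of 19 at the 2-fold threshold. With combined treatments added, 9 isozyme pairs in place of 0 passed. Genes lower in the strain test numbered 0 with zeros kept, with all 15 arrays required or with no treatment block, 16 with centring and 3 with scaling, and 0 to 33 without 1 treatment (0 to 14 higher), with 33 and 14 when nitrogen starvation was left out. The starvation test gave 0 to 45 genes higher and 0 to 5 lower without 1 array, with 45 and 5 when 0.1% glucose was left out. Directions turned only for results that had not passed. Without 1 array means ran from −0.30 to 0.22 for PDC1 and −0.47 to 0.14 for ALD6 over the 7 treatments. Starvation minus stress ran from −0.99 to 0.35 for PDC1, −1.06 to 0.84 for ADH1, −0.04 to 2.41 for ALD4 and −1.11 to 0.71 for ALD6. Strain differences ran from −0.33 to 0.03 for ALD2, −0.16 to 1.15 for ALD5 and −0.62 to 1.14 for ALD6 (−0.03 with centring), and isozyme differences from −0.29 to 0.17 for ADH2 minus ADH1 and −0.36 to 0.84 for ALD6 minus ALD5. The causes were not tested. No paired analysis by replicate number was possible because the labels carry no such numbers, whereas the strain test was blocked by treatment and isozymes were paired by array. Signal over background is not given, so which ratios are from dim spots is not known, nor whether spots listed at 0 or blank were dim.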

Other observations

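The combined treatments can be set beside the sum of the log2 ratios of their nearest single treatments, as values without a test. ALD4 was below that sum on all 3 arrays, at 3.30 against 6.69 in nitrogen and glucose starvation, 3.15 against 7.67 in glucose starvation with rapamycin and 3.80 against 6.64 in nitrogen starvation with KCl. ALD3 was also below it, at 3.35 against 5.50, 3.87 against 6.66 and 7.02 against 8.71. ADH2 was above it in nitrogen and glucose starvation, at 3.49 against 1.55, and close to it in glucose starvation with rapamycin, at 2.79 against 2.57. PDC6 in nitrogen starvation with KCl was at 5.16 against 5.25, whereas PDC1 there was at −2.52 against −0.16 and ADH1 at −1.19 against 0.87. The single and combined arrays may share a control. By their labels the combined arrays with glucose starvation had total carbon starvation, and the single treatment had 0.1% glucose. That difference in glucose does not apply to nitrogen starvation with KCl.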
